A study of Mus musculus with 20 samples.

Results

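Voltage-gated sodium channel subunits were followed through the hippocampus of awake and anesthetized mice. The set held 8 of the 32285 genes listed in the count tables: the pore-forming alpha subunit genes Scn1a, Scn2a, Scn3a, Scn8a and Scn9a, and the auxiliary beta subunit genes Scn2b, Scn3b and Scn4b. The genes were chosen by name, with earlier results of these data known, and their unique molecular identifiers (UMIs, 1 per captured RNA molecule) were summed per mouse and per class of nuclei. Scn8a had the most UMIs over all nuclei (119887), followed by Scn2a (101950), Scn1a (64184), Scn3a (37554), Scn3b (32063), Scn9a (14955) and Scn2b (10443), and Scn4b had 618.

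An alpha subunit forms a complete sodium-conducting pore by itself, and its opening starts and carries the action potential. Scn1a encodes Nav1.1, known for its role in fast-spiking inhibitory neurons, Scn2a encodes Nav1.2 and Scn8a encodes Nav1.6, the channels of the axon initial segment of excitatory neurons, Scn3a encodes Nav1.3, which is most abundant before birth, and Scn9a encodes Nav1.7, best known from pain-sensing neurons. Beta subunits cross the membrane beside the pore, where they change the channel's gating and its delivery to the surface. The beta subunits encoded by Scn2b and Scn4b are linked to the pore by a disulfide bond, whereas that of Scn3b is held without one.

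Single-nucleus RNA-seq was carried out on 20 hippocampi, 1 per mouse, from male mice of 4.5 to 5.5 months. The mice were labelled as wild type (WT) or as APP/PS1 (APPSwe/PS1ΔE9), a model of familial Alzheimer's disease that carries human transgenes, and the WT mice were littermates. Awake mice (6 WT, 3 APP/PS1) received no anesthetic according to their label (Wake), isoflurane mice (3 WT, 4 APP/PS1) were started at 5% and lowered to 1.5%, and ketamine mice (2 WT, 2 APP/PS1) received 150 mg/kg ketamine together with 12 mg/kg xylazine. Anesthetized mice were killed after 3 h. The labels of single mice were used throughout, although the design text of the series gives other group sizes (5 WT and 4 APP/PS1 awake, 4 WT and 3 APP/PS1 isoflurane). The effects of ketamine and of xylazine cannot be told apart, and no group received either alone. All 4 ketamine mice were numbered 25 to 28 in the labels, beside a single awake WT mouse numbered 29, so treatment and this run of numbers could be separated only through mouse 29. The study's methods describe processing in batches of 4 mice, and the labels do not say which mice shared one.

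Transgene sequence was not analysed here. Prnp, whose promoter is used in transgene cassettes of this kind, was therefore compared between genotype labels in CA1-like nuclei. In the awake mice it stood at 257 ± 214 CPM (UMIs of the gene per 1000000 UMIs of the class in the mouse; SD, n = 3) in mice labelled APP/PS1 and at 101 ± 46.1 (n = 6) in WT mice, and the two-sided exact permutation test gave p = 0.190. Without mouse 2 (497 CPM) the APP/PS1 mean was 138 CPM (exact permutation p = 0.571). Without mouse 17 it was 343 CPM (exact permutation p = 0.0714, the smallest that this number of mice allows). In the isoflurane mice it stood at 163 ± 101 (n = 4) against 93.4 ± 41.7 (n = 3), with an exact permutation p = 0.40, where the smallest p that this number of mice allows is 0.0571. The ketamine mice, too few for the exact permutation test to reach a small p and not tested, had 159 and 161 CPM (APP/PS1) against 37.1 and 44.8 CPM (WT). Over all mice the labels overlapped, at 61.3 to 497 CPM for APP/PS1 and 37.1 to 180 CPM for WT.

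Of the members, 4 alpha genes lie in a cluster on chromosome 2 of the GRCm38 mouse genome: Scn3a at chr2:65457118-65567627 on the minus strand, Scn2a at chr2:65620771-65767447 on the plus strand, Scn1a at chr2:66270778-66440840 on the minus strand and Scn9a at chr2:66480080-66634962 on the minus strand. Scn8a lies alone at chr15:100869858-101045938 on the plus strand. The beta genes lie on chromosome 9, on the plus strand: Scn3b at chr9:40269217-40291618, Scn2b at chr9:45117782-45130070 and Scn4b at chr9:45138395-45154152, with 8.32 kb between Scn2b and Scn4b. A long antisense gene, Gm13629 (chr2:66440880-66546026, plus strand), starts 39 bases from the start of Scn1a, faces away from it and runs through part of Scn9a on the opposite strand. The stretch just outside Scn1a, chr2:66440841-66441087, is shown because Gm13629 begins in it and had the distribution over classes closest to that of Scn9a (Pearson's r = 0.959 over 18 classes). It is printed 5′ to 3′ on the minus strand from RefSeq's GRCm38.p6 assembly, and the capitals mark the 39 bases between the annotated starts of both genes.
Scn1a start region: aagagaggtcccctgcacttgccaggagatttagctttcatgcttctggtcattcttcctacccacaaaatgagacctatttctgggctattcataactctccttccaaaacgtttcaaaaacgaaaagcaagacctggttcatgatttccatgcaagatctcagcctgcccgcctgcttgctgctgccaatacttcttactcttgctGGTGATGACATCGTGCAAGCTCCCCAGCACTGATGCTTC
Gm13629 had 9499 UMIs over all nuclei. Cell Ranger counts reads of the sense strand by default, but the setting was not given in the sources used here, and the part of reads that Scn9a and Gm13629 may share was not tested. The same holds for the shorter overlaps of Scn1a with Gm13630 (3154 UMIs), of Scn3a with Gm13595 (2520 UMIs) and of Scn2b with Gm10684 (649 UMIs).

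The tables held 160777 nuclei with 9243992 to 25394891 UMIs per mouse and medians of 1235 to 3169 UMIs per nucleus. Pairs of libraries shared 5 to 35 barcodes, with a median of 17. After 10844 nuclei (6.74%) were removed as likely doublets, together with the clusters they made up, 148026 nuclei were left, and 131672 of them fell into clusters that could be named from marker genes. Mice 1 to 4 stood apart, with 0.939% to 1.78% mitochondrial UMIs against 0.0353% to 0.336% in the other mice. Classes with under 20 nuclei in a mouse were left out for that mouse.

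Named classes covered granule cells of the dentate gyrus (DG granule-like, 40001 nuclei), CA1-like (17200), CA3-like (9470) and subiculum or cortex-like (4635) pyramidal neurons, and interneuron-like nuclei (7524). The interneuron-like class was further divided into Pvalb-like, Sst-like, Vip-like, Lamp5-like and Cnr1/Cck-like subtypes. Cajal-Retzius-like neurons, oligodendrocyte precursor-like (OPC-like), astrocyte-like, oligodendrocyte-like, microglia-like, fibroblast-like, endothelial-like and ependymal or choroid-like nuclei made up the rest. No cluster met the requirements for CA2 or mossy cells, and none of the Scn genes was used to form clusters.

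**Figure D1:**
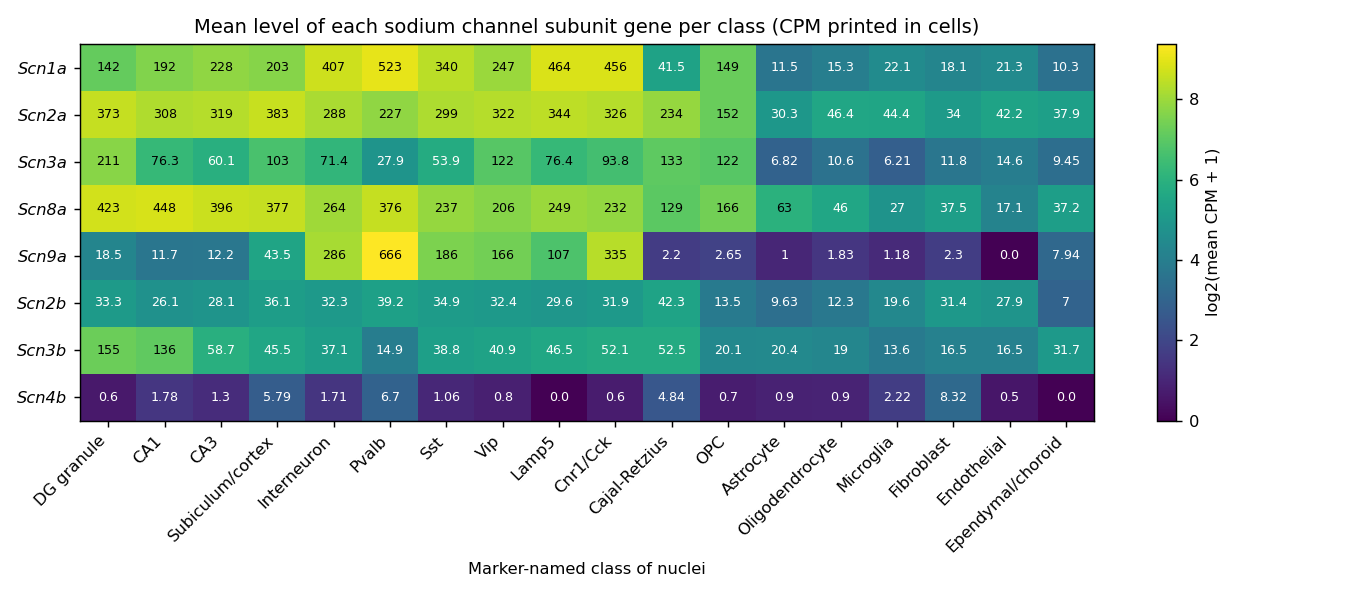
Mean level of each member gene (vertical axis) in each marker-named class of nuclei (horizontal axis), as CPM averaged over mice and printed in each cell, with colour giving log2(mean CPM + 1). Scn9a reached 666 CPM in Pvalb-like nuclei and 11.7 CPM in CA1-like nuclei, while Scn2a lay between 227 and 383 CPM in every neuronal class.

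Scn1a had its highest levels in inhibitory neurons. Its level was 523 ± 122 CPM in Pvalb-like nuclei (SD, n = 17 mice), 464 ± 102 in Lamp5-like, 456 ± 99.5 in Cnr1/Cck-like (n = 15), 340 ± 84.5 in Sst-like and 247 ± 71.2 in Vip-like nuclei (n = 17). In the excitatory classes it ranged from 142 ± 23.0 CPM in DG granule-like to 228 ± 31.2 in CA3-like nuclei. Neighbours in the order of means were taken to differ beyond the spread within mice where the mean paired log2 difference reached its SD over mice. By this spread is meant the SD, between mice, of the differences taken within each mouse. The rule takes no account of the number of mice and is not a test, so neighbours that fall short of it may still differ. Pvalb-like nuclei were higher than Lamp5-like nuclei in 15 of 17 mice, yet not beyond this spread. Lamp5-like nuclei did not differ beyond it from Cnr1/Cck-like nuclei, and Cnr1/Cck-like were not compared with Sst-like nuclei. Vip-like and CA3-like nuclei did not differ beyond it either, the former being higher in 8 of 17 mice. Scn1a was higher in interneuron-like than in CA1-like nuclei in 20 of 20 mice, by 0.95 on the log2 scale (SE 0.04, edgeR adjusted p = 1.32e-20). For this pair of classes 69.1% of all 11071 genes tested were called, so that the size of a difference says more than its call. All 7 members that could be tested were called. Scn4b did not pass the filter on low counts in any pair of classes.

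Scn9a had the sharpest distribution of the alpha genes. It was at 286 ± 96.0 CPM in interneuron-like nuclei (lowest mouse 160, median 279, highest 575) and at 11.7 ± 5.51 CPM in CA1-like nuclei (3.35, 11.2 and 22.4). The mice of both classes did not overlap. The difference was 4.36 on the log2 scale (SE 0.12, edgeR adjusted p = 3.74e-25) and was seen in 20 of 20 mice. Within the interneurons, Pvalb-like nuclei held 666 CPM (lowest 365, median 610, highest 1280), with 1257 UMIs behind the value. They stood above the other named interneurons together in 17 of 17 mice, by 1.79 on the log2 scale (SE 0.08, edgeR adjusted p = 4.99e-26), where 41% of 4251 genes were called. Cnr1/Cck-like nuclei came next at 335 CPM and differed from Pvalb-like nuclei beyond the spread within mice. Sst-like nuclei had 186 CPM, Vip-like 166 and Lamp5-like 107, and these neighbours did not differ beyond the spread within mice. Scn9a was lower in Sst-like nuclei than in the other named interneurons summed, Pvalb-like and Cnr1/Cck-like nuclei included, in 20 of 20 mice, with a log2 difference of -0.71 (SE 0.07, edgeR adjusted p = 5.94e-12), where 30% of 5162 genes were called. Scn1a (-0.40), Scn3a (-0.45) and Scn8a (-0.17) were also called lower in that pair, and Scn2a (-0.03) and Scn3b (-0.02) were not. When nuclei were assigned by their own marker UMIs in place of their cluster, Scn9a in Sst-like nuclei turned to 0.25 and was not called. Scn1a was then at 0.003 and Scn8a at -0.09, neither called, and Scn3a did not pass the filter. That fit held 5 of the 20 mice, since 7.94% of Sst-like nuclei kept their class. At Leiden resolution 2 some of the calls of this pair were lost too. The order of Scn9a over the subtypes moved with that of Gm13629, which had 322 CPM in Pvalb-like, 184 in Cnr1/Cck-like, 115 in Sst-like, 77.8 in Vip-like and 70.6 in Lamp5-like nuclei, 6.78 in CA1-like nuclei and 1.31 to 5.26 in the glial classes. Among excitatory classes, Scn9a was highest in subiculum or cortex-like nuclei, at 43.5 CPM.

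Scn8a showed the opposite order. CA1-like nuclei had 448 ± 43.9 CPM, DG granule-like 423 ± 49.5, CA3-like 396 and subiculum or cortex-like 377, and none of these 4 differed from its neighbour beyond the spread within mice. The paired fits still called small differences from CA1-like nuclei. DG granule-like nuclei were lower by a log2 difference of -0.18 (SE 0.04, edgeR adjusted p = 0.000364) and higher in 6 of 20 mice. CA3-like nuclei were lower by -0.16 (SE 0.03, edgeR adjusted p = 3.27e-06) and higher in 1 of 20 mice. Scn8a was lower in interneuron-like nuclei (264 ± 28.1 CPM) than in CA1-like nuclei in 20 of 20 mice, with a log2 difference of -0.89 (SE 0.04, edgeR adjusted p = 6.93e-19). Pvalb-like nuclei were the exception among the interneurons. Their level of 376 ± 70.8 CPM was higher than that of the other named interneurons in 16 of 17 mice, by 0.72 on the log2 scale (SE 0.08, edgeR adjusted p = 3.90e-11). Pvalb-like nuclei thus had Scn1a, Scn8a and Scn9a above, and Scn2a and Scn3a below, the other named interneurons. The log2 differences were 0.42 for Scn1a (edgeR adjusted p = 1.34e-06), -0.53 for Scn2a (2.80e-06) and -1.36 for Scn3a (2.36e-08). Scn2b, Scn3b and Scn4b did not pass the filter for this pair. With nuclei assigned by their own marker UMIs, Scn1a was no longer called (0.23, edgeR adjusted p = 0.110), the difference of Scn9a was 0.79 (5.81e-05), and Scn3a did not pass the filter. That fit held 11 of the 17 mice, and 28.5% of Pvalb-like nuclei kept their class.

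**Figure D2:**
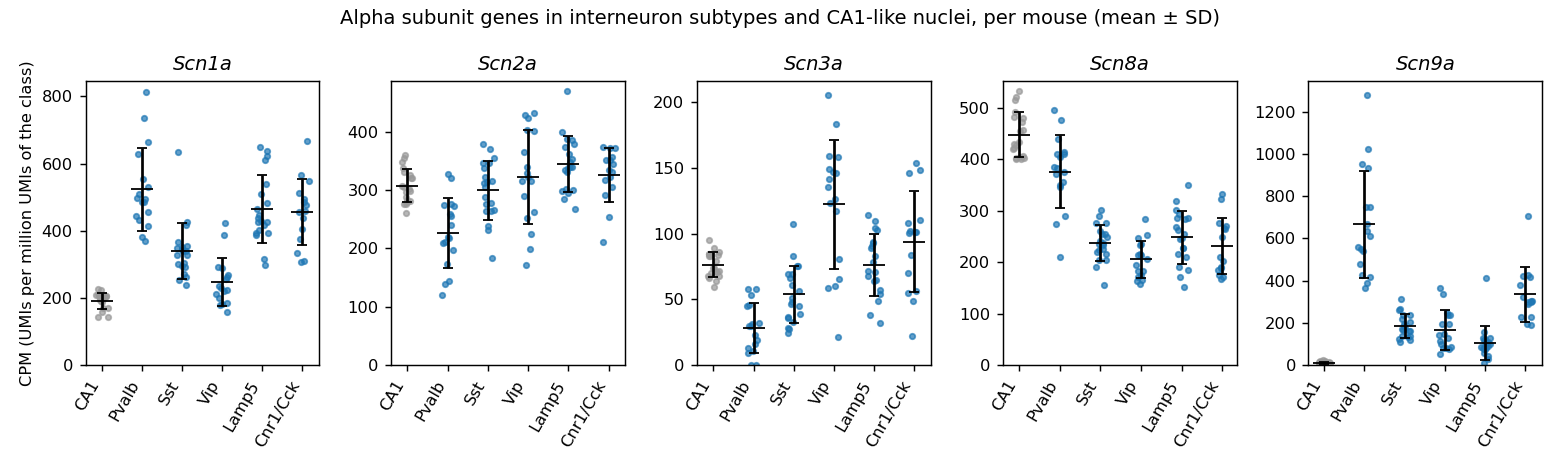
Level in CPM (vertical axis) of the 5 alpha subunit genes in CA1-like nuclei (grey) and in 5 interneuron subtypes (blue). Each point is a mouse, and the bars give the mean and the SD. Scn9a in CA1-like nuclei lies at or below 22.4 CPM in every mouse and in Pvalb-like nuclei at or above 365 CPM.

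Scn2a was the most evenly spread alpha gene among neurons. Subiculum or cortex-like nuclei had 383 ± 41.1 CPM, DG granule-like 373 ± 44.7, CA3-like 319, CA1-like 308 ± 28.7 and interneuron-like 288 ± 24.3. It was higher in DG granule-like than in CA1-like nuclei in 20 of 20 mice, yet only by 0.17 on the log2 scale (SE 0.04, edgeR adjusted p = 8.74e-05). For that pair 69% of 12564 genes were called, and 5 of the 7 members tested were called. The interval for Scn2a between CA3-like and CA1-like nuclei ran from -0.01 to 0.13 on the log2 scale (edgeR adjusted p = 0.107). That pair of classes had 59.2% of 11652 genes called, and 4 of 7 members.

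Scn3a had its highest mean in DG granule-like nuclei. DG granule-like nuclei had 211 ± 24.9 CPM (lowest 163, median 216, highest 256) and CA1-like nuclei 76.3 ± 9.49 (59.7, 73.8 and 95.5), with no overlap between the mice of both classes. Cajal-Retzius-like nuclei came second at 133 ± 88.2 CPM (n = 16, 67 UMIs) and did not differ from DG granule-like nuclei beyond the spread within mice. The difference between DG granule-like and CA1-like nuclei was 1.35 on the log2 scale (SE 0.04, edgeR adjusted p = 6.30e-23). Among interneurons, Vip-like nuclei had the highest Scn3a level (122 CPM) and Pvalb-like nuclei the lowest (27.9 CPM, 61 UMIs).

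Among the beta genes, Scn3b had the clearest pattern. DG granule-like nuclei had 155 ± 27.3 CPM and CA1-like nuclei 136 ± 26.7, followed by CA3-like nuclei at 58.7 and interneuron-like nuclei at 37.1. Scn3b was lower in CA3-like than in CA1-like nuclei in 20 of 20 mice, with a log2 difference of -1.21 (SE 0.05, edgeR adjusted p = 1.00e-22). It was also lower in interneuron-like than in CA1-like nuclei in 20 of 20 mice, with a log2 difference of -2.0 (SE 0.07, edgeR adjusted p = 1.33e-21). Between DG granule-like and CA1-like nuclei the interval ran from -0.01 to 0.18 on the log2 scale (edgeR adjusted p = 0.123). With nuclei assigned by their own marker UMIs the difference was 0.23 and called (SE 0.06, edgeR adjusted p = 0.00241). In that setting 16.6% of DG granule-like and 30.6% of CA1-like nuclei kept their class.

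Scn2b had a low level in every class. Its means lay between 26.1 and 42.3 CPM in neuronal classes and between 7.0 and 31.4 CPM in the others, and no neighbours in their order differed beyond the spread within mice. It was higher in DG granule-like (0.26, edgeR adjusted p = 0.000421) and in interneuron-like nuclei (0.19, 0.0256) than in CA1-like nuclei on the log2 scale. Scn4b was close to absent from most classes: its mean was at or below 8.32 CPM in each, and 83 UMIs were counted in CA1-like nuclei of all mice. In Lamp5-like nuclei 0 of 3381972 UMIs were Scn4b, which allows up to 0.887 CPM (3 counts, counting error only). Within-class levels of Pvalb-like nuclei (6.70 CPM) rested on 11 UMIs in 9 of 17 mice, and the difference between subtypes was not tested.

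Levels of different genes were set side by side per kb of gene length, since intronic reads were counted and a longer gene yields more of them. In CA1-like nuclei Scn3b then had 6.06 CPM per kb, Scn8a 2.54, Scn2b 2.12, Scn2a 2.10, Scn1a 1.13, Scn3a 0.69, Scn4b 0.11 and Scn9a 0.08. In Pvalb-like nuclei Scn9a led with 4.30 CPM per kb, followed by Scn2b with 3.19, Scn1a with 3.07, Scn8a with 2.14 and Scn2a with 1.55. On this scale the short beta genes ranked beside the alpha genes. The span of a gene does not measure how much of its RNA was captured at the 3′ end, so the order holds for this scale only.

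OPC-like nuclei carried alpha subunit RNA at levels above those of the other glial classes. Scn8a had 166 CPM there, Scn2a 152, Scn1a 149 and Scn3a 122 ± 20.2, against 63.0, 30.3, 11.5 and 6.82 CPM in astrocyte-like nuclei. All 4 were higher in OPC-like than in astrocyte-like nuclei in 20 of 20 mice, and higher than in microglia-like nuclei in 19 of 19 mice. The log2 differences were 4.01 for Scn3a (SE 0.15, edgeR adjusted p = 1.36e-22), 3.53 for Scn1a (SE 0.16, 6.17e-20), 2.27 for Scn2a (SE 0.14, 2.18e-16) and 1.33 for Scn8a (SE 0.08, 4.54e-17), where 69.9% of 7424 genes were called. In percent of the highest among the DG granule-like, CA1-like, CA3-like, subiculum or cortex-like and interneuron-like classes, OPC-like nuclei had 57.9% of Scn3a, 39.6% of Scn2a, 37.1% of Scn8a and 36.7% of Scn1a. Of the neuronal reference genes on the same scale, Syt1 had 3.34%, Rbfox3 2.14%, Gad2 1.94% and Camk2a 5.02% in OPC-like nuclei, whereas Nrgn had 38.5%, Gad1 24.7%, Snap25 22.2% and Slc17a7 10.8%. In astrocyte-like, oligodendrocyte-like and microglia-like nuclei Scn1a had 2.84% to 5.43% and Scn3a 2.94% to 5.02%, where Syt1 had 2.72% to 4.07% and Nrgn 50.7% to 77.4%. The part of free RNA in these values was not tested. Scn8a in astrocyte-like nuclei (14.1%) was above its own share in microglia-like nuclei (6.03%). Scn9a had 0.35% to 0.93% in all 4 glial classes. Scn2b had 26.6% to 54.3% in them.

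The genes whose class profile was most like a member's, over 18 classes and 8312 genes, are given as a description. They were Gabrb2 for Scn1a (r = 0.961), Tmem63c for Scn2a (0.992), Fam155a for Scn3a (0.934), Lmtk3 for Scn8a (0.967), Gm13629 for Scn9a (0.959), Iqsec3 for Scn2b (0.886), Sphkap for Scn3b (0.928) and Rbm6 for Scn4b (0.722). Gabrb2 encodes a subunit of the GABA-A receptor. The classes share libraries, and the interneuron subtypes are parts of the interneuron-like class.

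Whether anesthesia moved the members was tested in 12 classes, of which 11 held at least 1 member past the filter on low counts, for 70 pairs of member and class. The classes included the interneuron-like class and also its Sst-like and Lamp5-like parts, so that some nuclei count in more than 1 class. Microglia-like nuclei held none. Comparisons of ketamine with awake mice and of ketamine with isoflurane mice use the same 4 ketamine mice, and both comparisons with awake mice share the awake mice.

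Ketamine mice had less Scn2b. In CA1-like nuclei the ketamine mice had 8.94 and 8.64 CPM (APP/PS1) and 7.09 and 18.5 CPM (WT). The awake mice had 31.2, 17.2, 29.2, 38.4, 39.1 and 16.4 CPM (WT) and 40.7, 19.1 and 39.9 CPM (APP/PS1), and the isoflurane mice ranged from 13.2 to 47.2 CPM with a median of 30.8. Ketamine mouse 28, at 18.5 CPM, lay inside the range of the awake mice and the other 3 ketamine mice lay below it. The ketamine values in CA1-like nuclei rested on 64 UMIs in all. In CA3-like nuclei the ketamine mice had 3.31, 11.3, 8.13 and 13.4 CPM, all below the lowest awake mouse at 20.5 CPM. In DG granule-like nuclei they had 10.9, 13.7, 11.4 and 18.8 CPM, all below the lowest awake mouse at 20.1 CPM. In interneuron-like nuclei 3 of 4 (9.09, 12.0 and 8.45 CPM) lay below the lowest awake mouse at 20.2 CPM, and mouse 28 did not (24.1 CPM).

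**Figure D3:**
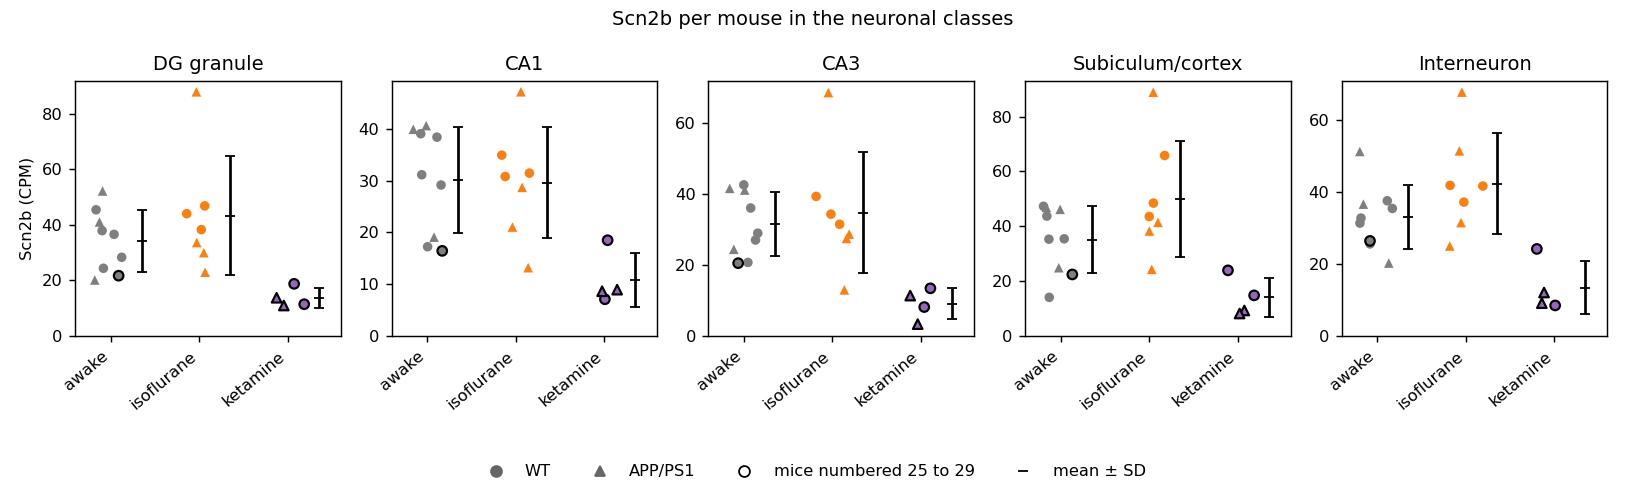
Scn2b level in CPM (vertical axis) in 5 neuronal classes, by treatment (horizontal axis). Each point is a mouse (circles WT, triangles APP/PS1), black outlines mark mice 25 to 29 and the bars give the mean and the SD. In CA3-like and DG granule-like nuclei the 4 ketamine mice lie below every awake mouse, and awake mouse 29 lies at or near the low end of the awake mice.

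Against awake mice, 6 of the 70 pairs were called for ketamine, all lower, and 29 had an unadjusted p under 0.05. Over all genes 7.23% of the 119111 gene and class pairs were called, 3.41% as lower and 3.81% as higher. The members' share of calls was close to the value for both directions. Of the 119111 pairs, 29286 had an unadjusted p under 0.05. In the 5 neuronal classes with a called member, 4.23% to 12.6% of all genes were called. Scn2b accounted for 5 of the 6, with log2 fold changes of -1.34 in DG granule-like nuclei (SE 0.33, edgeR adjusted p = 0.0146), -1.47 in CA1-like (SE 0.34, 0.0108), -1.69 in CA3-like (SE 0.39, 0.0173), -1.38 in subiculum or cortex-like (SE 0.34, 0.0229) and -1.26 in interneuron-like nuclei (SE 0.29, 0.0219). It was negative in all 10 classes tested, from -3.44 to -1.16, glia included. The mean summed level of the neuronal reference genes in astrocyte-like nuclei was 238 CPM in ketamine mice (179 to 301) and 509 CPM in awake mice (238 to 890), with awake mice 14, 19 and 29 inside the ketamine range. In oligodendrocyte-like nuclei it was 284 CPM (218 to 401) and 661 CPM (237 to 1272), with awake mice 19 and 29 inside that range. In CA1-like nuclei the same sum was 5660 CPM in ketamine mice and 5781 in awake mice. The part of free RNA in the values of Scn2b in glia was not tested.

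Awake mouse 29, the only mouse of another treatment in the ketamine run of numbers, had low Scn2b too. Its level was 16.4 CPM in CA1-like, 20.5 in CA3-like, 21.7 in DG granule-like, 26.4 in interneuron-like and 22.4 in subiculum or cortex-like nuclei. It was the lowest awake mouse in CA1-like and CA3-like nuclei. In each of these 5 classes at least 3 of the 4 ketamine mice lay below it. With the runs of numbers as a block, the difference between ketamine and awake mice rested on this mouse alone. The log2 fold changes then were -0.70 in DG granule-like (edgeR adjusted p = 0.737), -0.68 in CA1-like (0.707), -1.20 in CA3-like (0.704), -0.90 in subiculum or cortex-like (0.794) and -0.98 in interneuron-like nuclei (0.833), and no call was left. No call was left either when nuclei were assigned by a gate of marker UMIs per nucleus in place of clusters, which kept the class of 16.6% to 46.0% of the nuclei in these 5 classes. The calls were also lost on leaving out single mice: mouse 27 in each of the 5 classes, mouse 25 in all but CA1-like nuclei, mouse 26 in CA1-like, subiculum or cortex-like and interneuron-like nuclei, mouse 28 in subiculum or cortex-like nuclei, and awake mouse 2 in subiculum or cortex-like and interneuron-like nuclei. The largest adjusted p without a single mouse was 0.141. Omission of mice 1 to 4 together ended the calls in subiculum or cortex-like and interneuron-like nuclei.

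DG granule-like clusters were mixed differently in the ketamine mice, of whose nuclei 63.6% fell in cluster 3 and 2.17% in cluster 6, against 35.1% and 24.0% in awake mice. Mice 1 to 4, none of them a ketamine mouse, gave 61.5% of the nuclei of cluster 6. Within cluster 3, Scn2b was 14.1 CPM in ketamine and 31.7 CPM in awake mice, and within cluster 2 it was 11.4 against 35.2 CPM. CA1-like nuclei came from 1 cluster. In the main cluster of CA3-like nuclei the values were 7.17 and 30.7 CPM.

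Scn9a moved in another way. In CA1-like nuclei the ketamine mice had 3.35 and 7.77 CPM (APP/PS1) and 3.94 and 4.87 CPM (WT), against 6.02 to 16.3 CPM with a median of 11.0 in awake mice. All but 1 of the 4 ketamine mice lay below the lowest awake mouse, on 34 UMIs in all. The log2 fold change was -1.04 (SE 0.31, edgeR adjusted p = 0.0435), and it was -1.11 with the runs as a block (adjusted p = 0.488). The call was lost without any 1 of mice 10, 13, 17, 19, 25, 27 and 28, and the largest adjusted p was then 0.185. Gad1 and Gad2, which mark inhibitory neurons, summed to 3.79 CPM in CA1-like nuclei of ketamine mice (1.68 to 4.87). That sum was 5.48 CPM in awake mice (2.53 to 11.2) and 6.99 CPM in isoflurane mice (2.90 to 14.8). The part of stray interneuron RNA in the Scn9a differences of CA1-like nuclei was not tested. In interneuron-like nuclei Scn9a had 226 and 320 CPM (APP/PS1) and 402 and 382 CPM (WT) under ketamine, with a log2 fold change of 0.61 that was not called (edgeR adjusted p = 0.108).

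**Figure D4:**
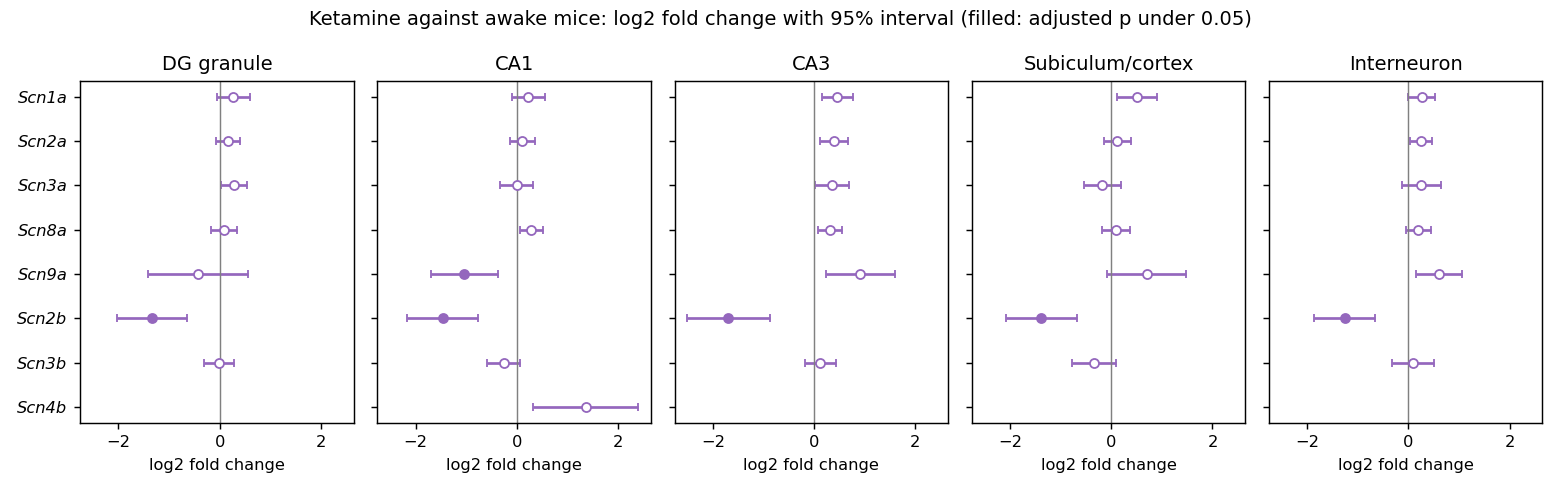
Log2 fold change of ketamine against awake mice (horizontal axis) for each member (vertical axis) in 5 neuronal classes, from edgeR, with 95% intervals. Filled points are called at an adjusted p of 0.05. Scn2b is filled in all 5 panels, Scn9a in the CA1-like panel, and the points of Scn1a, Scn2a, Scn3a, Scn8a and Scn3b are open.

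The other members were not called against awake mice. Their smallest adjusted p-values for ketamine were 0.060 for Scn1a, 0.063 for Scn2a, 0.078 for Scn8a, 0.090 for Scn4b, 0.129 for Scn3a and 0.224 for Scn3b. Scn1a had positive log2 fold changes in 8 of 10 classes, with a median of 0.27.

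Against isoflurane mice, 11 of the 70 pairs were called for ketamine, 9 lower and 2 higher, and 30 had an unadjusted p under 0.05. Over all genes 6.02% of the 119111 pairs were called, 3.03% as lower and 2.98% as higher, and 27858 had an unadjusted p under 0.05. Scn2b made up 7 of the 9 lower calls, with log2 fold changes from -3.12 to -1.34. In neurons they were -1.34 in CA1-like (adjusted p = 0.0244), -1.51 in interneuron-like (0.0200), -1.55 in DG granule-like (0.0202), -1.73 in CA3-like (0.0242) and -1.81 in subiculum or cortex-like nuclei (0.0188). In oligodendrocyte-like (-3.12, adjusted p = 0.0322) and fibroblast-like nuclei (-2.52, 0.0126) the clusters were mixed differently. Cluster 9, of which mice 1 to 4 gave 90.6%, held 38.4% of oligodendrocyte-like nuclei in isoflurane mice and 0.448% in ketamine mice. Cluster 15 held 93.4% and 17.3% of fibroblast-like nuclei in the same order. Within oligodendrocyte-like cluster 4 Scn2b was 2.295 ± 1.93 CPM in ketamine mice (7 UMIs) and 14.5 ± 14.9 CPM in isoflurane mice (38 UMIs). Within fibroblast-like cluster 15 it was 4.27 ± 5.08 CPM (2 UMIs) and 52.4 ± 38.8 CPM (38 UMIs). In fibroblast-like cluster 20 the 1 isoflurane mouse had 0 UMIs and the 4 ketamine mice had 5. These differences within clusters were not tested, and the ketamine values rest on few UMIs. Leaving out mouse 25 or mouse 27 ended each of the 7 Scn2b calls, and other single mice (3, 4, 18, 26 or 28) ended some of them, with adjusted p-values of up to 0.161. All calls were lost with the runs as a block, where the ketamine and isoflurane mice share no run and are compared through the awake mice. Scn2b in fibroblast-like nuclei then changed direction, to a log2 fold change of 0.58.

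Scn9a was lower under ketamine than under isoflurane in CA1-like nuclei (log2 fold change -1.44, SE 0.31, edgeR adjusted p = 0.0122), the isoflurane mice having 7.0 to 22.4 CPM with a median of 16.7, and leaving out mouse 25 or 27 ended the call (adjusted p up to 0.0900). Scn8a differed in opposite directions in 2 classes. In CA1-like nuclei ketamine mice had 516, 521, 533 and 455 CPM against 401 to 482 CPM in isoflurane mice (log2 fold change 0.41, SE 0.11, adjusted p = 0.0334), and leaving out mouse 3, 4, 18, 25, 26 or 27 ended the call (adjusted p up to 0.212). In oligodendrocyte-like nuclei they had 19.3 to 28.2 CPM, on 65 UMIs, against 37.2 to 80.3 CPM (log2 fold change -1.33, SE 0.31, adjusted p = 0.0230), and leaving out any 1 of the ketamine mice ended the call (adjusted p up to 0.0949). Awake mouse 29 had 22.8 CPM there, inside the range of the ketamine mice. Within oligodendrocyte-like cluster 4, which held 99.6% of these nuclei in ketamine mice, Scn8a was 23.3 CPM in ketamine and 52.6 CPM in isoflurane mice. Neuronal reference genes summed to 284 CPM in oligodendrocyte-like nuclei of ketamine mice and to 743 CPM in those of isoflurane mice.

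Scn4b was higher under ketamine than under isoflurane in CA1-like nuclei (log2 fold change 1.78, SE 0.52, edgeR adjusted p = 0.0430). The ketamine mice had 11, 12, 4 and 1 UMIs of Scn4b there, or 6.15, 5.18, 3.15 and 0.974 CPM, and the isoflurane mice had 25 UMIs in all and 0.539 to 3.11 CPM. The groups overlapped, and the call was lost without mouse 4, 13, 15, 16, 18, 25, 26 or 27, with adjusted p-values of up to 0.515.

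Isoflurane mice differed from awake mice in 2 of the 70 pairs, both higher, and 6 had an unadjusted p under 0.05. Over all genes 3.58% of the 119111 pairs were called, 2.02% as higher and 1.56% as lower, and 18197 had an unadjusted p under 0.05. With both directions counted, the members' share did not exceed that over all genes, either in calls or in unadjusted p. The larger of the 2 called differences was Scn9a in subiculum or cortex-like nuclei. The awake mice had 16.3 to 37.2 CPM with a median of 22.9, and the isoflurane mice 28.3, 40.4, 52.0, 59.1, 60.7, 115 and 123 CPM. Only isoflurane mouse 3, at 28.3 CPM, lay inside the awake range. The log2 fold change was 1.31 (SE 0.32, edgeR adjusted p = 0.0191), or 1.07 with the runs of numbers as a block (0.0133), and leaving out mouse 2, 10 or 16 ended the call, with adjusted p-values of up to 0.0771. Of 2 clusters in this class, cluster 19 held 38.8% of nuclei in awake and 55.6% in isoflurane mice. Within cluster 19 Scn9a was 46.5 ± 17.1 CPM (n = 9) in awake and 87.5 ± 32.6 CPM (n = 7) in isoflurane mice, and within cluster 14 it was 11.2 ± 6.90 (n = 9) and 27.5 ± 15.0 CPM (n = 6). The neuronal reference genes summed to 5710 CPM in awake mice (4730 to 6508) and to 4446 CPM in isoflurane mice (3760 to 4963) of this class, with 6 of the 7 isoflurane mice below every awake mouse, and their part in the Scn9a difference was not tested. Gad1 and Gad2, which mark inhibitory neurons, summed to 7.71 CPM in awake and 8.95 CPM in isoflurane mice of this class. In interneuron-like nuclei, which held more Scn9a, the log2 fold change for isoflurane was 0.36 and not called (adjusted p = 0.418).

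**Figure D5:**
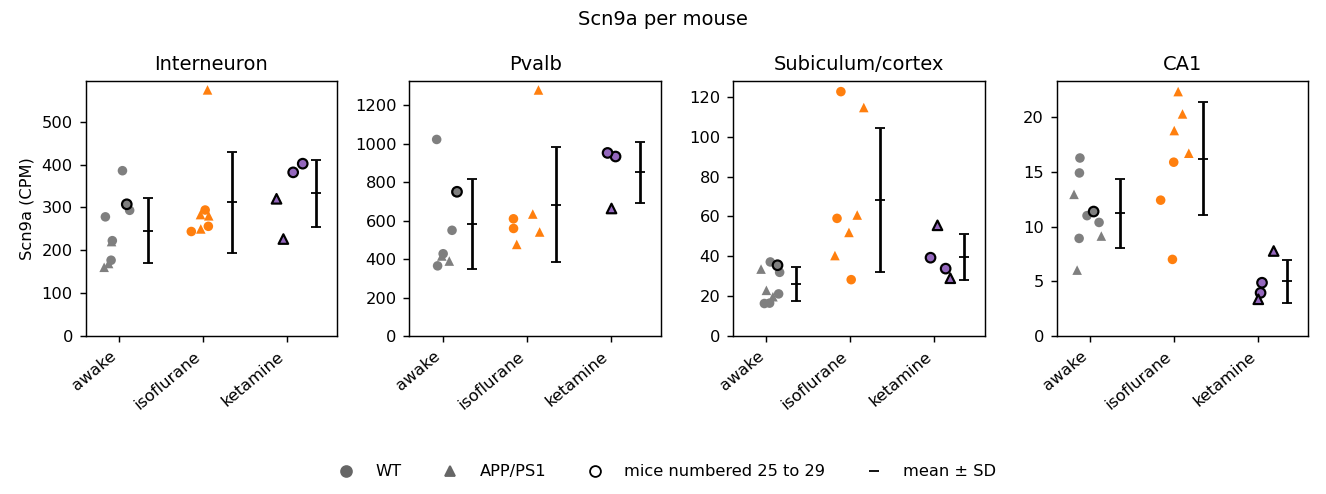
Scn9a level in CPM (vertical axis) in 4 classes, by treatment (horizontal axis). Each point is a mouse (circles WT, triangles APP/PS1), black outlines mark mice 25 to 29 and the bars give the mean and the SD. In subiculum or cortex-like nuclei 6 of the 7 isoflurane mice lie above every awake mouse, and in interneuron-like nuclei isoflurane mouse 20 lies at 575 CPM, far from the others.

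The other call was Scn3b in astrocyte-like nuclei. Awake mice had 6.92 to 21.7 CPM with a median of 13.8, and isoflurane mice 14.5 to 44.3 CPM with a median of 33.5. The log2 fold change was 0.99 (SE 0.27, edgeR adjusted p = 0.0280), or 1.02 with the runs as a block (0.00365), and 2 of the 7 isoflurane mice lay inside the awake range. The neuronal reference sum was 509 CPM in astrocyte-like nuclei of awake and 569 CPM in those of isoflurane mice. Leaving out any 1 of mice 2, 3, 4, 17, 18 and 20 ended the call (adjusted p up to 0.0819), and so did leaving out mice 1 to 4 together.

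Scn1a, Scn2a, Scn3a and Scn8a were not called for isoflurane. Their log2 fold changes against awake mice lay between -0.22 and 0.18 for Scn1a over 10 classes, -0.31 and 0.18 for Scn2a over 11, -0.71 and 0.11 for Scn3a over 10 and -0.19 and 0.37 for Scn8a over 11. The smallest adjusted p-values were 0.482, 0.175, 0.294 and 0.444. Standard errors of these 4 genes ran from 0.09 to 0.49 on the log2 scale.

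Between the genotype labels, 0 of the 70 pairs were called by edgeR, 4 had an unadjusted p under 0.05, and 0% of genes were called over all classes (3240 at an unadjusted p under 0.05). DESeq2 called 1 gene and class pair over all genes, which was not a member. The 4 were Scn1a in Lamp5-like (log2 fold change 0.32), Scn2a in fibroblast-like (0.87), and Scn3b in CA1-like (0.28) and oligodendrocyte-like nuclei (1.00), each higher in mice labelled APP/PS1, and the smallest adjusted p of any member was 1.00. The interaction of genotype and isoflurane was likewise called in 0 of 70 pairs by edgeR, with 5 at an unadjusted p under 0.05 and 0% of genes called (3901 unadjusted). Of these 5, 3 were Scn9a. In interneuron-like nuclei the WT mice had 177, 222, 293, 278, 386 and 307 CPM awake and 256, 294 and 244 CPM under isoflurane. Mice labelled APP/PS1 had 169, 160 and 220 CPM awake and 250, 280, 283 and 575 CPM under isoflurane. The 4 isoflurane mice of the APP/PS1 label thus lay above the 3 awake mice of that label, while the WT mice overlapped. The log2 interaction was 1.08 (SE 0.38, unadjusted p = 0.0106 and adjusted p = 0.921, edgeR), 1.16 in Sst-like (adjusted p = 0.956) and 1.17 in CA1-like nuclei (adjusted p = 0.884). No difference between the genotype labels in the response to isoflurane was therefore shown.

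Genes that act with the channels were counted in the same fits. FGF homologous factors, which bind the cytoplasmic tail of alpha subunits, were called in 5 of 38 pairs for isoflurane against awake mice, all lower, with a median log2 fold change of -0.20, beside 3.58% of all pairs called and 1.56% called lower. Fgf13, the member with 4 of these calls, had log2 fold changes of -0.68 in DG granule-like (edgeR adjusted p = 0.0257), -0.63 in Lamp5-like (0.0141), -0.55 in interneuron-like (0.0375, named after its value was seen) and -1.02 in microglia-like nuclei (0.00740). Fgf12 had -0.50 in interneuron-like nuclei (0.00858). Lamp5-like nuclei are part of the interneuron-like class, so the Fgf13 calls in these classes share nuclei. How the calls of these lists fared under other settings is not given here. Of the scaffold genes of the axon initial segment and node, 8 of 123 pairs were called, 7 lower and 1 higher, among them Nrcam in astrocyte-like (-0.74), Schip1 in oligodendrocyte-like (-0.64), Cntn1 in DG granule-like (-0.41), Cntn2 in CA1-like (-0.76) and Nfasc in oligodendrocyte-like nuclei (0.68). Channel regulators had 1 of 79 pairs called, Nedd4l in astrocyte-like nuclei (-0.45), the sodium leak channel genes 1 of 45 and the sodium pump genes 0 of 67. The neuronal reference genes had 5 of 84 called, 4 of them lower. The median log2 fold change over all genes of a class lay between -0.02 and 0.03 in the 12 classes.

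For ketamine against awake mice the scaffold genes had 7 of 123 pairs called, 5 higher and 2 lower, the FGF homologous factors 1 of 38, the regulators 3 of 79, the leak channel 1 of 45, the pump 3 of 67 and the neuronal reference genes 6 of 84, beside 7.23% of all pairs. Ank3, which encodes the ankyrin that anchors sodium channels at the axon initial segment, was higher in oligodendrocyte-like nuclei (log2 fold change 0.68, edgeR adjusted p = 0.00658), and Cntn1 was lower there (-1.45, 0.0178). In that class cluster 9 held 29.2% of nuclei in awake and 0.448% in ketamine mice. Of the 10 calls with the smallest adjusted p, 8 were in fibroblast-like nuclei, where 27.6% of all genes were called and the clusters were mixed differently, among them Fyn (2.23), Sptbn1 (1.62), Atp1b1 (1.70) and Fgf12 (-1.27). Against isoflurane mice, 5 of 123 scaffold pairs, 1 of 38 FGF factor pairs, 5 of 79 regulator pairs, 2 of 45 leak channel pairs, 4 of 67 pump pairs and 7 of 84 pairs of neuronal reference genes were called, beside 6.02% of all pairs. Most of those with the smallest adjusted p were again in fibroblast-like nuclei, where 35.1% of all genes were called, among them Sptbn1 (1.62), Calm2 (1.86), Nedd4 (-1.27) and Nedd4l (-1.04), and Nalcn was higher in oligodendrocyte-like nuclei (0.82). For genotype and for the interaction no pair of these lists was called by edgeR. Among the beta subunits the median log2 fold change over classes for ketamine against awake mice was -1.58 for Scn2b (10 classes) and 0.03 for Scn3b (10 classes), Scn4b was tested in 1 class (1.36), and the median of the 49 pairs of alpha subunits was 0.11. The median over all genes of a class lay between -0.12 and -0.03 in the 12 classes.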

How the data were processed

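Hippocampal single nuclei of 20 mice were sequenced as 1 10x Genomics library per mouse. The authors deposited whole-number UMI counts per gene and nucleus, made with Cell Ranger 5.0.0 against mm10 with intronic reads included per the methods of the study. The file headers name Cell Ranger alone, so whether the ambient RNA correction of the methods was applied to these counts is not given in the sources used here. Libraries held 160777 nuclei in all. Nuclei were scaled to 10000 UMIs, reduced to 30 components on 2000 variable genes without any Scn gene, and clustered (scanpy 1.11.5, leidenalg 0.10.2). Likely doublets, marked from simulated pairs, and the clusters they made up were removed. Clusters were named from listed markers. Counts were summed per mouse and class (at least 20 nuclei), tested by quasi-likelihood in edgeR 4.0.16 (R 4.3.3) after filterByExpr and TMM scaling, with p adjusted by Benjamini-Hochberg over all genes of a class and called at 0.05, and expressed as CPM of the class sum. Pairs of classes were fitted with the mouse as a block. Scripts were tested on simulated data. Alternatives were DESeq2 1.42.0, RLE factors, no gene filter, doublets kept, 500 genes per nucleus, Leiden resolution 2, a marker gate per nucleus, omission of mice 1 to 4 or of each mouse, and runs of mouse numbers as a block. All 8 subunit genes were named in every class, pathway genes from the 10 smallest adjusted p-values of a comparison, with 1 exception stated. Some listed genes are not reported here. The subunits and gene lists were chosen with earlier results of these data known. Mice are the replicates, and SDs over mice include the counting error of low UMI counts.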

Additional observations from a re-analysis of the deposited data

Results flagged for a closer look

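In 10 of 64 groups of 4 to 6 mice, for subunit genes in the large neuronal classes, 1 mouse stood apart from the others of its own genotype and state by Dixon's gap ratio. Chance alone flags a single group about 1 in 20 times. The groups reuse the same awake WT mice and the same APP/PS1 isoflurane mice for every gene and class. They are therefore not independent, and their count cannot be set against that rate. Among APP/PS1 mice under isoflurane, mouse 20 had 575 CPM of Scn9a in interneuron-like nuclei, where the other 3 had 250 to 283 CPM, and 21.8 CPM of Scn9a in CA3-like nuclei, where the others had 10.2 to 11.5 CPM. Mouse 15 of the same group had 87.9 CPM of Scn2b in DG granule-like nuclei against 22.9 to 33.6 CPM, and 473 CPM of Scn8a in CA1-like nuclei against 401 to 407 CPM. Mouse 11 had 234 CPM of Scn1a in CA3-like nuclei against 215 to 217 CPM. Mouse 4 had 279 CPM of Scn8a in interneuron-like nuclei against 283 to 284 CPM, a gap that is small in size.

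Among awake WT mice, mouse 19 had the highest Scn8a (294 CPM, others 221 to 248 CPM) and the lowest Scn3b (19.7 CPM, others 33.1 to 37.6 CPM) in interneuron-like nuclei. Mouse 29, the only awake mouse in the run of numbers that holds the ketamine mice, had 91.6 CPM of Scn3a in interneuron-like nuclei against 58.4 to 70.5 CPM. Mouse 12 had 434 CPM of Scn2a in DG granule-like nuclei against 340 to 375 CPM.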

How the results depend on the processing

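Single subunit values were followed over settings that changed 1 choice. They were the treatment values called with the main setting and all tested values of the class pairs, counted together. Treatment values not called with the main setting were not followed, so gains among them are not in the counts. Of the results, 1338 kept their side of the threshold, and those of them that were called kept their direction. Another 148 lost and 27 gained significance with the same direction, and 4 that were called with either setting changed sign. The block of number runs was fitted for treatment values only, where 16 calls were lost with the same direction, 1 changed sign and 2 were kept. Changes of sign among values called with neither setting were not counted. With number runs as a block, the subunit calls of ketamine against awake and of ketamine against isoflurane fell to 0 and 0, those over all genes to 59 and 7. Subunit calls of isoflurane against awake were 2, Scn9a and Scn3b, those over all genes rose to 7103, and genotype gave 4. For ketamine against isoflurane, Scn2b in fibroblast-like nuclei turned to 0.58 and was not called. With the marker gate, subunit calls were 0 for ketamine against awake and 1 for ketamine against isoflurane, those over all genes 1700 (isoflurane), 2588 (ketamine) and 2045 (ketamine against isoflurane). Pvalb-like nuclei then gave 3 called subunits, beside 624 of 2044 genes called. Sst-like nuclei gave 0, beside 221 of 2672 genes called, with Scn1a at 0.0031 and Scn9a at 0.25 on the log2 scale. Without mice 1 to 4, subunit calls were 1 (isoflurane) and 6 (ketamine against isoflurane), and those over all genes 2019 (isoflurane) and 5509 (ketamine). Without the gene filter, ketamine gave 10 subunit calls, and genotype gave 91 and its interaction with isoflurane 169 gene-class pairs. DG against CA1 then gave 8 called subunits, beside 11127 of 27473 genes called. DESeq2 gave 1 genotype call. With doublets kept, CA3 against CA1 gave 7 called subunits, beside 7393 of 12399 genes called, and Scn9a was 0.33 (edgeR adjusted p = 0.0483). Leiden resolution 2 left 2 for Sst-like nuclei, beside 1547 of 4870 genes called. The cause of these shifts was not tested.

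Leaving out each mouse in turn gave 0 to 2 subunit and 2362 to 5050 gene-class calls for isoflurane, 0 to 10 and 2323 to 10716 for ketamine, and 0 to 14 and 2439 to 8414 for ketamine against isoflurane. Genotype and its interaction gave 0 to 0. Class pairs gave 6 to 7 (interneuron against CA1), 5 to 6 (DG), 4 to 6 (CA3), 5 to 5 (Pvalb), 3 to 4 (Sst) and 4 to 4 (OPC against astrocyte). In the same order, calls over all genes were 7339 to 7669, 8403 to 8584, 6646 to 6883, 1601 to 1800, 1491 to 1565 and 4844 to 5261. Mouse numbers are not shared between groups, so the number runs were the only pairing tried. Mice 1 to 4 and mice 14 to 17 each hold 1 mouse of the 4 awake and isoflurane groups, as the batches of 4 in the study's methods would, but the labels give no batch. The ketamine groups held 4 mice, and Scn2b, Scn3b and Scn4b had few UMIs in most classes, which limits what could be detected there.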

Other observations

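Scn4b in fibroblast-like nuclei did not pass the count filter and was not tested, but its level differed among the mice. The 4 ketamine mice, in the order of their numbers, had 6.87, 47.4, 3.22 and 43.5 CPM. The awake mice had 0 to 18.5 CPM, with the highest value in mouse 29, and the isoflurane mice had 0 to 23.6 CPM. The fibroblast-like nuclei of these mice came from different clusters. Cluster 29 held 559 nuclei of 1 ketamine mouse, with 22 Scn4b UMIs (56.1 CPM), and 3 nuclei of awake mice. Cluster 20 held 23 Scn4b UMIs over 1403 nuclei of the 4 ketamine mice (18.9 ± 29.1 CPM, SD) and 6 over 505 nuclei of 3 awake mice (9.74 ± 16.9 CPM), a difference within the spread between mice. Cluster 15 held 2 Scn4b UMIs over 409 ketamine nuclei and 1 UMI over 1481 awake nuclei. The values in cluster 15 are at the level of single UMIs.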
